A study of Mus musculus with 9 samples.

Results

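The 9 mouse genes described here encode proteins with which the gut lining holds microbes at a distance: the Reg family lectins Reg1, Reg3a, Reg3b, Reg3g and Reg4, the lectin intelectin 1 (Itln1), the ribonuclease angiogenin 4 (Ang4), the resistin-like molecule Retnlb, and Pigr, the transporter of secreted antibodies. They were picked by symbol, and their probes were found through the RefSeq accession that each array probe carries. All 9 are named on the array, among 20660 named genes, and they have 11 probes, since Itln1 and Pigr have 2 each. Of the 9, 7 were bright enough to be among the 14014 genes tested, and Reg1 and Reg4 were not. The 9 were chosen with earlier results of these same arrays known, so their levels are given as a description and without p-values.

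RNA from mouse colon organoids, which are mini-organs of gut epithelium grown in a gel, was hybridised to 9 single-colour Agilent arrays in 3 groups of 3: untreated organoids (0 weeks), organoids given inflammatory reagents for 12 weeks, and organoids given them for 60 weeks. The labels do not name the reagents, the mouse strain or the age of the mice, and no untreated culture of 12 or 60 weeks is among the samples, so the effect of treatment and that of culture time cannot be told apart. They also do not say whether the 3 replicates of a group came from separate mice or cultures, so the spread given here may be technical. Levels are log2 intensities relative to the 75th percentile of each array's probes, so that 0 is a probe as bright as that percentile. "Well above background" is the scanner software's own call for a probe on an array. The level of 1 probe is not set against that of another, since probes differ in brightness for the same amount of RNA.

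Reg proteins are small secreted lectins, and the Reg3 members bind or damage bacteria close to the epithelium. Their genes are known in mouse intestine to answer to bacterial signals through MyD88 and to interleukin 22 through STAT3. Goblet cells (which make mucus) and Paneth cells (which make antimicrobial granules and are normally absent from the colon) are the usual sources of Itln1, Ang4 and Retnlb, whereas Pigr is made by epithelial cells at large, which use it to carry immunoglobulin A into the lumen.

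The arrays had 49.2% to 52.7% of their probes well above background. Of 13 colon epithelium markers, 12 were well above background in every group; the chloride exchanger gene Slc26a3 was not on any array. Of 9 leukocyte markers with a named probe, 3 were well above background in every group (Cd3e, Itgam and Csf1r), while the pan-leukocyte gene Ptprc and the plasma cell genes Jchain and Mzb1 were not on any array. Replicate 2 of 12 weeks stood apart: across genes it correlated at 0.978 and 0.977 with the other 12-week arrays, which correlated at 0.992 with each other, against 0.99 to 0.996 within the 60-week and 0-week groups. Results that rest on it are therefore given with and without it. Replicate 3 of 60 weeks was the one array of its slide. On the other slide, row 1 held the 0-week arrays and replicate 1 of 12 weeks, and row 2 held the remaining 12-week and 60-week arrays, so 60 and 0 weeks share no row.

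Itln1 was detected on no untreated array and on every treated one. Its brighter probe, A_66_P119869, had log2 levels of -5.34, -4.86 and -4.57 at 0 weeks, 1.91, 4.95 and 2.32 at 12 weeks, then 6.77, 6.91 and 6.86 at 60 weeks. The groups did not overlap, and the 12-week arrays were spread far wider (SD 1.65) than those of 60 weeks (SD 0.073). On the scanner's linear scale, the highest 0-week intensity was 19, the 12-week intensities were 2355, 16475 and 2825, and the 60-week intensities were 54921, 49586 and 57321. In bulk RNA such a change can come from more cells that express a gene or from more RNA per cell, and these cannot be told apart here.

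Folds over 0 weeks were taken against the lowest level called well above background on each 0-week array, or Itln1's own where higher. By that measure Itln1 was at least 219-fold higher at 12 weeks and at least 3022-fold higher at 60 weeks. These bounds hold for the background-subtracted intensities: with another background correction (normexp) the differences of measured means were smaller than the bounds, 5.56 at 12 weeks and 9.27 at 60 weeks on the log2 scale, and both were called. Normexp was run with an offset of 50 added to every intensity, which by itself makes log2 differences that involve dim levels smaller. How much of each normexp reduction given here comes from the offset was not tested. Between the treated groups, where both levels were measured, the difference was 3.79 ± 0.68 (SE, n = 3 each), which is 13.8-fold higher at 60 weeks than at 12 weeks. Replicate 2 of 12 weeks had the highest Itln1 level of its group, the other arrays of that group lying at 1.91 and 2.32. Without it the 60 over 12 weeks difference was 4.73, and the difference of measured means between 12 and 0 weeks was 7.04 in place of 7.99. Within row 2 of the slide, which holds 2 arrays each of 60 and 12 weeks, the 60-week mean was 6.84, against 3.64 at 12 weeks.

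The other Itln1 probe, A_55_P1976022, gave the same order. Its levels were -5.47, -6.62 and -5.57 at 0 weeks, 0.78, 3.87 and 1.34 at 12 weeks, then 5.84, 5.90 and 5.86 at 60 weeks. It put Itln1 at least 106-fold higher at 12 weeks and at least 1561-fold higher at 60 weeks than at 0 weeks, and 14.7-fold higher at 60 than at 12 weeks. Replicate 2 was the highest of the 12-week arrays on this probe too.

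**Figure D1:**
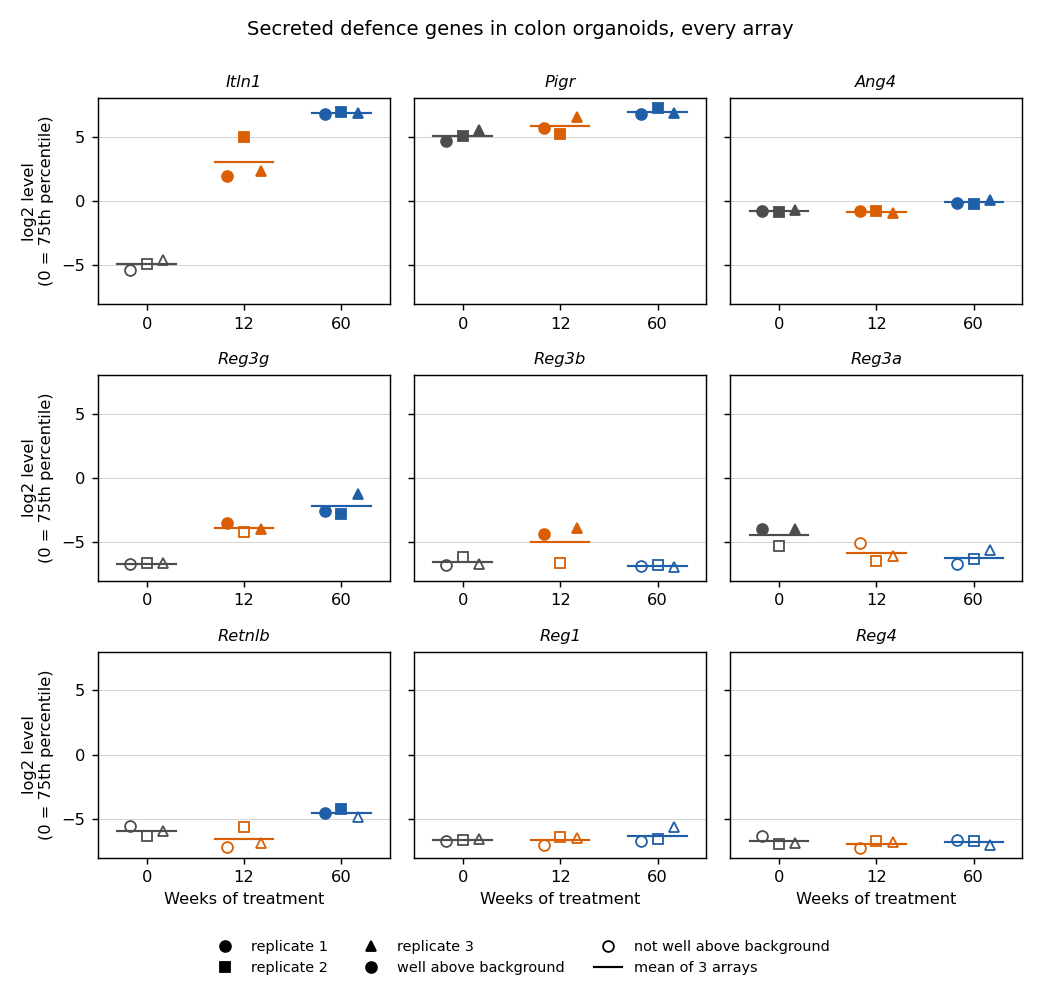
Log2 level (0 is the array's 75th percentile) of the 9 genes on every array, by weeks of treatment; symbols are replicates 1 to 3, filled where the probe was well above background, and lines are means of 3 arrays. Itln1 lies at 6.77 to 6.91 at 60 weeks, against open symbols at -5.34 to -4.57 at 0 weeks, Reg3b is filled on 2 arrays of 12 weeks only, and Reg1 and Reg4 have no filled symbol.

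Pigr was the member of which both probes were well above background on every array. Pigr's brighter probe, A_55_P1960999, had levels of 4.67, 5.09 and 5.51 at 0 weeks, 5.65, 5.23 and 6.57 at 12 weeks, then 6.78, 7.24 and 6.81 at 60 weeks. The 60-week arrays lay above all others, while the 12-week and 0-week arrays overlapped, since replicate 2 of 12 weeks lay below replicate 3 of 0 weeks. Mean levels were 5.09 ± 0.42 at 0 weeks, 5.82 ± 0.69 at 12 weeks and 6.94 ± 0.26 at 60 weeks (SD, n = 3).

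On this probe Pigr differed by 0.73 ± 0.35 (SE) between 12 and 0 weeks, which did not pass limma's threshold and was 1.02 and past it without replicate 2 of 12 weeks. Pigr was 3.61-fold higher at 60 weeks than at 0 weeks (1.85 ± 0.35). On the linear scale this probe read 55187, 62115 and 55314 at 60 weeks, and no spot was called saturated. The 60 over 12 weeks difference was 1.13 (2.18-fold higher), and it fell short of the threshold in 11 of 21 alternative treatments of the data, among them leaving out replicate 2 of 0 weeks, replicate 1 or 2 of 12 weeks, or any array of 60 weeks (0.83 to 1.21).

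The dimmer Pigr probe, A_51_P239737, separated the groups more widely. It had levels of 1.38, 0.82 and 1.33 at 0 weeks, 3.29, 3.33 and 3.19 at 12 weeks, then 4.89, 4.94 and 4.99 at 60 weeks. No groups overlapped, and the gap between the nearest arrays was 1.80 for 12 over 0 weeks and 1.56 for 60 over 12 weeks. By this probe Pigr was 4.27-fold higher at 12 weeks and 13.6-fold higher at 60 weeks than at 0 weeks, and leaving out replicate 2 of 12 weeks moved the 12-week difference only to 2.06, against 2.09 with it. The 2 Pigr probes thus share the direction at 60 weeks, with log2 differences over 0 weeks of 3.76 and 1.85, and they disagree on whether 12 weeks stood above 0 weeks. Why they differ was not tested.

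**Figure D2:**
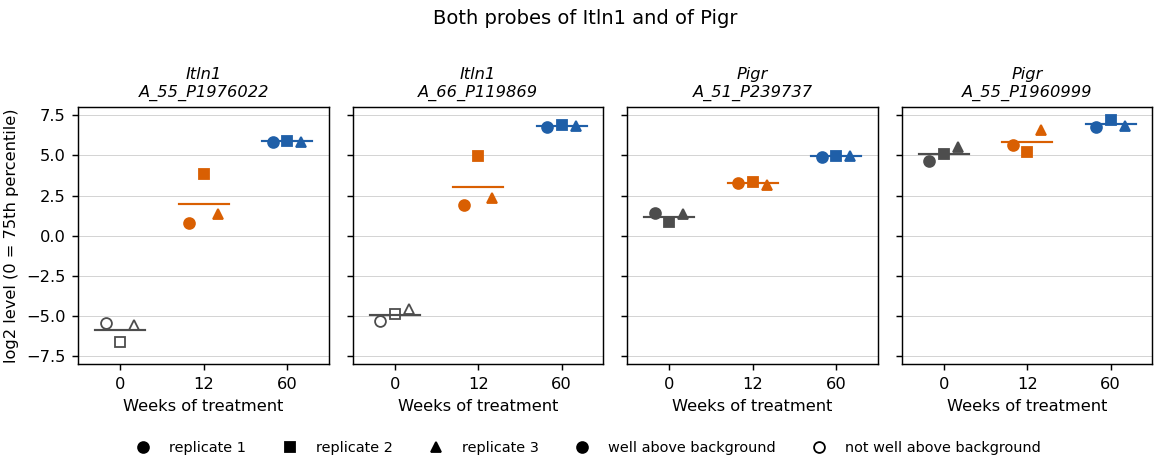
Log2 level of both probes of Itln1 and both of Pigr on every array, by weeks of treatment; filled symbols are well above background and lines are means of 3 arrays. The Itln1 probes run in parallel, with replicate 2 (square) highest at 12 weeks, whereas the 12-week and 0-week arrays of Pigr overlap on A_55_P1960999 and lie 1.80 apart on A_51_P239737.

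Among the 5 Reg members, Reg3g, which encodes a lectin that kills Gram-positive bacteria, was the one found on all arrays of 60 weeks. Its levels were -6.70, -6.65 and -6.64 at 0 weeks, -3.48, -4.19 and -4.01 at 12 weeks, then -2.56, -2.78 and -1.29 at 60 weeks. No 0-week array was well above background; replicates 1 and 3 of 12 weeks were, and so was every 60-week array, with no overlap between groups. Reg3g was at least 1.80-fold higher at 12 weeks and at least 5.78-fold higher at 60 weeks than at 0 weeks. At 60 weeks it was 3.21-fold higher than at 12 weeks (1.68 ± 0.36 SE), and 1.53 higher without replicate 2 of 12 weeks. The highest Reg3g level, -1.29, came from replicate 3 of 60 weeks, the array on a slide of its own; within row 2 of the other slide the 60-week mean was -2.67, against -4.10 at 12 weeks. With the normexp background correction the 12-week call was lost, at a difference of 0.51, and the 60-week differences were called but smaller than those above, at 1.29 over 0 weeks and 0.78 over 12 weeks. Both normexp differences over 0 weeks were smaller than the bounds given here.

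Reg3b, a close relative of Reg3g that acts on Gram-negative bacteria, was well above background on 2 arrays of the 9, both of 12 weeks. It had levels of -6.78, -6.12 and -6.73 at 0 weeks, -4.37, -6.59 and -3.91 at 12 weeks, then -6.84, -6.74 and -6.91 at 60 weeks. Replicate 2 of 12 weeks lay among the 0-week values, so those groups overlapped, and every 60-week array lay below every 12-week array. No fold can be stated in either direction, because the mean of 12 weeks was not above the lowest levels called well above background at 0 and 60 weeks. The difference of measured means between 12 and 0 weeks was 1.59 ± 0.60 (SE) and not called, and 2.40 and called without replicate 2 of 12 weeks. The 60 over 12 weeks difference of -1.87 was called, and fell short of the threshold in 15 of 19 alternatives, among them leaving out any single array other than replicate 2 of 12 weeks (-1.92 to -1.35, and -2.69 and called without that one) and the normexp correction (-0.23).

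Reg3a, whose human namesake encodes an antibacterial lectin, was detected only in untreated organoids. It had levels of -3.99, -5.31 and -3.98 at 0 weeks, -5.04, -6.44 and -6.04 at 12 weeks, then -6.67, -6.30 and -5.63 at 60 weeks. Replicates 1 and 3 of 0 weeks were well above background and no treated array was. Reg3a was at least 1.24-fold lower at 12 weeks and at least 1.22-fold lower at 60 weeks than at 0 weeks, calls that were lost in 10 and 7 of 19 alternatives. The 12-week call was lost without replicate 1 or 3 of 0 weeks, replicate 2 or 3 of 12 weeks, or replicate 1 or 2 of 60 weeks, at differences of measured means of -1.41 to -1.12, and the 60-week call without replicate 1 or 3 of 0 weeks or replicate 1 or 2 of 60 weeks, at -1.72 to -1.54. The normexp correction reduced the differences to -0.32 at 12 weeks, still called, and -0.14 at 60 weeks, not called and smaller than its bound, and a block for slide row reduced them to -0.61 and -0.86, neither called. Replicate 2 of 0 weeks, at -5.31, lay below replicate 1 of 12 weeks, so the 12-week and 0-week groups overlapped.

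Reg1, first known as a pancreatic stone protein, and Reg4, a marker of deep crypt secretory and enteroendocrine cells of the colon, were well above background on none of the 9 arrays. Reg1 lay between -7.06 and -6.43 on 8 arrays and at -5.61 on replicate 3 of 60 weeks. Mean Reg4 levels were -6.70, -6.93 and -6.80 at 0, 12 and 60 weeks. At these levels no difference was detectable for either gene.

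The Reg genes other than Reg4, which is on chromosome 3, lie side by side on chromosome 6 in the order Reg3b, Reg3d, Reg3a, Reg2, Reg1 and Reg3g, with the pseudogene Gm52853 before Reg3g. Their levels took different courses. Reg3d was well above background on every array and fell by 0.78 ± 0.11 (SE, adjusted p = 0.000894) at 12 weeks and by 0.45 (adjusted p = 0.0143) at 60 weeks relative to 0 weeks; its 60-week call was lost without replicate 2 of 0 weeks (-0.38). No array showed Reg2 well above background. Over the cluster, Reg3g was thus detected in treated organoids, Reg3a in untreated ones, Reg3b at 12 weeks and Reg3d throughout. The median over 680 tested genes of chromosome 6 was -0.13 at 12 weeks and -0.20 at 60 weeks, against 0 weeks.

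**Figure D3:**
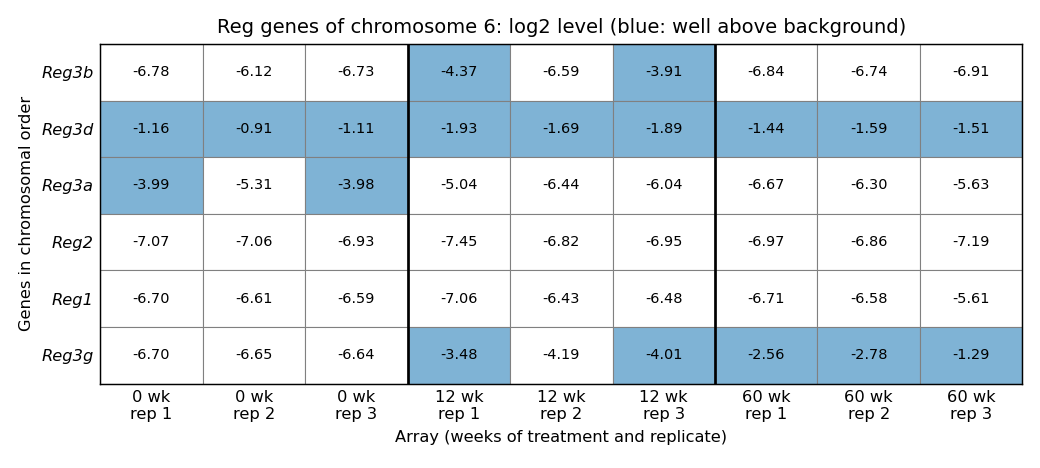
Log2 level of the 6 Reg genes of chromosome 6 (down the page, in chromosomal order) on each of the 9 arrays (across, by weeks of treatment and replicate); blue cells are well above background. Reg3d is blue on every array, Reg3a on 2 arrays of 0 weeks, Reg3b on 2 arrays of 12 weeks and Reg3g on 2 arrays of 12 weeks and all 3 of 60 weeks.

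The promoters of Reg3b and Reg3g are shown because these genes, at opposite ends of the cluster, differed at 60 weeks, when Reg3g was detected and Reg3b was not; those of Itln1 and Ang4 are shown because Itln1 was at least 3022-fold and Ang4 1.58-fold higher at 60 weeks than at 0 weeks. Each window is the 250 bases before the RefSeq transcription start (GRCm38.p6), 5′ to 3′ on the gene's strand. Capitals mark matches, on either strand, to 5 motifs: the NF-kB motif, a STAT motif (TTCNNNGAA), an AP-1 motif (TGANTCA), an IRF motif (GAAA and GAAA with any 2 bases between them) and a GATA motif (AGATAA or TGATAA).
Reg3b, chr6:78370635-78370884, plus strand: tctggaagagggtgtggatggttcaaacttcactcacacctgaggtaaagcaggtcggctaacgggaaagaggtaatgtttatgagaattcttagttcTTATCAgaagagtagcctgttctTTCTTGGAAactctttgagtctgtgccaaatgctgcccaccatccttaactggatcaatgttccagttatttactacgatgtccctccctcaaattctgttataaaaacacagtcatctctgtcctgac
Reg3g, chr6:78468875-78469124, minus strand: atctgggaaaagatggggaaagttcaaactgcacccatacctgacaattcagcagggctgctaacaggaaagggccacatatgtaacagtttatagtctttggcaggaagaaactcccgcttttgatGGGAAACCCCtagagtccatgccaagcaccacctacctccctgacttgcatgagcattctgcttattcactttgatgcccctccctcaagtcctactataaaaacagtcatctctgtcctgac
Itln1, chr1:171535295-171535544, minus strand: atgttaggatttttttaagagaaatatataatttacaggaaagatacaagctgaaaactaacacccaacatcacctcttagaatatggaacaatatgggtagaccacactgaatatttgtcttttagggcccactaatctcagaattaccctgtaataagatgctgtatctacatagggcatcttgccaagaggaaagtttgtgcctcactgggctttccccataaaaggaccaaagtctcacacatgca
Ang4, chr14:51773591-51773840, minus strand: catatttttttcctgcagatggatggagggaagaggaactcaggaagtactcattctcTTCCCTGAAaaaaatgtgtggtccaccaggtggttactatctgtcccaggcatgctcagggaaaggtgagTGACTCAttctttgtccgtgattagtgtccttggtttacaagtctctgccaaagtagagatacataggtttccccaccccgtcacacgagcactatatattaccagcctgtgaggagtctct

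Reg3b holds a STAT match starting 129 bases and a GATA match starting 152 bases before the start, and Reg3g holds an NF-kB match starting 123 bases before it, and none of the 5 motifs is matched in both. Of the 21 pairs among the 7 Reg promoters, Reg3b and Reg3g are the most alike in sequence, with 177 identical bases in 257 aligned columns (68.9%), against 47.8% to 58.5% in the other pairs. Ang4 holds a STAT match starting at 192 and an AP-1 match starting at 122 bases before the start, and Itln1 holds none of the 5 motifs. Over 32851 promoters, 7.25% hold an NF-kB match, 7.02% a STAT match, 6.75% an AP-1 match, 2.98% an IRF match and 16.6% a GATA match. A match is a run of letters and does not show that a factor binds, and a window without one says nothing about the factor. Of the remaining members, Reg4 has GATA matches at 136 and 101 bases, Reg1 has an AP-1 match at 117 and a GATA match at 234, and Pigr and Reg3a have none. No promoter sequence of Retnlb was available, so it was not searched.

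Ang4, a ribonuclease of the angiogenin family that kills bacteria in mouse gut, was well above background on every array. It had levels of -0.78, -0.83 and -0.67 at 0 weeks, -0.78, -0.79 and -0.94 at 12 weeks, then -0.13, -0.25 and 0.08 at 60 weeks. The 12-week and 0-week arrays overlapped, and the 60-week arrays lay above both. The 12 over 0 weeks difference was -0.08 ± 0.11 (SE). At 60 weeks Ang4 was 1.58-fold higher than at 0 weeks and 1.67-fold higher than at 12 weeks (0.66 and 0.74, each ± 0.11 SE). The 480 tested genes of chromosome 14, where Ang4 lies, had a median of 0.13 at 60 against 0 weeks. Replicate 2 of 12 weeks did not stand out for Ang4, and without it the 60 over 12 weeks difference was 0.76.

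Retnlb, a goblet cell protein that acts on bacteria and helps to keep them off the epithelium, came into view at 60 weeks. It had levels of -5.58, -6.31 and -5.95 at 0 weeks, -7.15, -5.61 and -6.85 at 12 weeks, then -4.53, -4.25 and -4.86 at 60 weeks. The 60-week arrays lay above all others, and replicates 1 and 2 of 60 weeks were the only arrays well above background. Retnlb was at least 1.14-fold higher at 60 weeks than at 0 weeks and at least 1.18-fold higher than at 12 weeks; the first of these calls was lost in 6 of 19 alternatives, among them leaving out replicate 2 or 3 of 0 weeks or replicate 1 or 2 of 60 weeks (1.22 to 1.39), and the other in none. The normexp correction (0.35) and a block for slide row (0.63) ended the first call at differences below the 1.40 found without them, and normexp left the 60 over 12 weeks difference at 0.45 and called. The 12-week and 0-week arrays overlapped, and replicate 2 of 12 weeks was the highest of its group: without it the 12 over 0 weeks difference of measured means was -1.05 and called, against -0.59 and not called with it, with neither group well above background.

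Set against the array as a whole, 3 of the 7 tested members were called at 12 against 0 weeks, where 41.8% of all tested genes were called: Itln1 and Reg3g were higher (as were 19.1% of genes) and Reg3a was lower (22.7%). At 60 against 0 weeks 6 of 7 were called, against 32.8% of all tested genes: Itln1, Reg3g, Pigr, Ang4 and Retnlb were higher (16.7%) and Reg3a was lower (16.1%). At 60 against 12 weeks 6 of 7 were called, against 38.3% of all tested genes: Itln1, Reg3g, Pigr, Ang4 and Retnlb were higher (20.7%) and Reg3b was lower (17.6%). The comparisons share their arrays, and because the genes were chosen with these values known, nothing is read from their shares.

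Groups without overlap were common on these arrays. At 12 weeks all arrays lay above those of 0 weeks for 2 members, Itln1 and Reg3g (24.9% of tested genes), and below them for 0 members (29.7%). At 60 weeks 5 members lay wholly above 0 weeks (27.5%) and Reg3a lay wholly below (29%), while 5 lay wholly above 12 weeks (25.4%) and Reg3b lay wholly below (21.9%). Itln1 and Reg3g stood higher at each step with no overlap between neighbouring times, as did 2.54% of the tested genes.

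Passing into or out of detection was rarer. Itln1, Reg3g and Reg3b were well above background on no array of 0 weeks and on at least 2 of 12 weeks, as were 3.33% of tested genes, and Itln1, Reg3g and Retnlb did the same at 60 weeks (1.94%). Reg3a went the other way, out of detection at 12 weeks (1.38%) and at 60 weeks (2.02%), both against 0 weeks. Between the treated groups, Retnlb came into detection at 60 weeks (1.14%) and Reg3b left it (3.2%).

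The genes whose levels ran closest to each member over the 9 arrays were found among 14013 other tested genes by Pearson's r, given as a description, since the 9 points are 3 groups of 3 arrays. Itln1 was nearest to Nudt22 (r = 0.999), Snx20 (0.998) and Creb3l4 (0.997). Pigr ran closest to Ermn (0.996), Gab3 (0.995) and Pnma2 (0.994). Reg3g was nearest to Topors, St6gal1 and Rnf4 (0.985 to 0.986), and Ang4 to Slc23a3, Mus81 and Bscl2 (0.982 to 0.988). Retnlb ran with Cidea, Capn13 and Slc46a3 (0.982 to 0.986), which like it had their lowest mean at 12 weeks and their highest at 60 weeks. Reg3b ran with Rcan2, Slc51b and Tfec (each 0.980), whose means were highest at 12 weeks, and Reg3a, with the lowest values of r, ran with Tmem53, Rab12 and Rbsn (0.944 to 0.946). Retnlb, Reg3b and Reg3a were each well above background on 2 of the 9 arrays, so their values of r rest mostly on levels near background.

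The closest relatives of Ang4 and Retnlb were measured beside them. Against 0 weeks, 19.1% of all tested genes rose and 22.7% fell at 12 weeks, and 16.7% rose and 16.1% fell at 60 weeks. Of 4 tested angiogenin and RNase A family genes, 0 rose and 1 fell at 12 weeks and 2 rose and 0 fell at 60 weeks against 0 weeks, with medians of -0.08 and 0.32, against -0.06 and -0.04 over all tested genes. The 2 that rose at 60 weeks were Ang, by 0.53 ± 0.13 (SE, adjusted p = 0.0134), and Ang2, by 0.73 ± 0.13 (adjusted p = 0.00334), both angiogenins, which did not pass at 12 weeks (adjusted p = 0.272 and 0.935). Rnase4, a ribonuclease found in many tissues, fell by 0.43 at 12 weeks (adjusted p = 0.0266), a call lost without replicate 1 or 3 of 0 weeks or replicate 3 of 12 weeks, as that of Ang was without replicate 1 of 0 weeks. All 3 resistin family genes were called lower at 12 weeks, when no array showed any of them well above background: Retn was at least 2.03-fold lower than at 0 weeks, Retnla at least 1.5-fold and Retnlg at least 1.78-fold. The Retnla call was lost without replicate 1 of 0 weeks or replicate 1 or 3 of 12 weeks. At 60 weeks Retn was 1.12 lower than at 0 weeks (adjusted p = 0.0086) and well above background on 1 of 3 arrays, and the others did not pass. With the normexp correction the differences at 12 weeks were -0.48 for Retn, -0.63 for Retnla and -0.55 for Retnlg, all still called, and that of Retn at 60 weeks was -0.11 and not called. The 12-week normexp differences of Retn and Retnlg were smaller than their bounds.

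Beside Pigr, 4 genes of the IgA list were tested, and 1 rose and 0 fell at 12 weeks and 1 rose and 1 fell at 60 weeks. Array-wide, 19.1% of tested genes rose and 22.7% fell at 12 weeks, and 16.7% rose and 16.1% fell at 60 weeks. Tnfsf13b, which encodes the B cell survival factor BAFF, rose by 1.64 ± 0.24 (adjusted p = 0.00121) at 12 weeks and by 2.91 ± 0.24 (adjusted p = 6.51e-05) at 60 weeks. Aldh1a1, an enzyme that makes retinoic acid, fell by 1.57 ± 0.28 at 60 weeks (adjusted p = 0.00359). Jchain, which joins the IgA that Pigr carries, was well above background on none of the 9 arrays.

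Of 23 tested receptor and signalling genes known to act upstream of Reg3 genes, Retnlb or Pigr, 7 rose and 3 fell at 12 weeks (median 0.16) and 8 rose and 3 fell at 60 weeks (median 0.26), against 0 weeks. The shares of all tested genes that rose and fell were 19.1% and 22.7% at 12 weeks and 16.7% and 16.1% at 60 weeks. Il22ra1, the epithelial receptor subunit for interleukin 22, rose by 1.81 ± 0.25 (adjusted p = 0.000864) at 12 weeks and by 1.24 ± 0.25 (adjusted p = 0.00653) at 60 weeks; the deposited value table lacks this probe, and another probe of Il22ra1 did not pass there at 60 weeks (0.28). Nfkbiz, a partner of NF-kB in the response to interleukin 17, rose by 1.01 (adjusted p = 0.00132) and 1.22 (adjusted p = 0.000612), and the kinase gene Jak1 by 0.67 (adjusted p = 0.000682) and 0.88 (adjusted p = 0.000195), at 12 and 60 weeks. Irf1, which takes part in Pigr induction by interferon gamma, rose by 1.03 at 60 weeks (adjusted p = 0.00215) and did not pass at 12 weeks (0.24, adjusted p = 0.271), though it did without replicate 2 of 12 weeks (0.43). The flagellin receptor gene Tlr5 fell by 1.19 at 12 weeks (adjusted p = 0.012) and was at least 4.29-fold lower at 60 weeks, when no array was well above background. With normexp the 60-week difference was -1.02, below that bound, and called. Stat3 did not pass at 12 weeks (-0.38, adjusted p = 0.0585) or at 60 weeks (-0.06, adjusted p = 0.751), though its 12-week difference did when the spread was estimated with replicate 2 of 60 weeks left out.

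**Figure D4:**
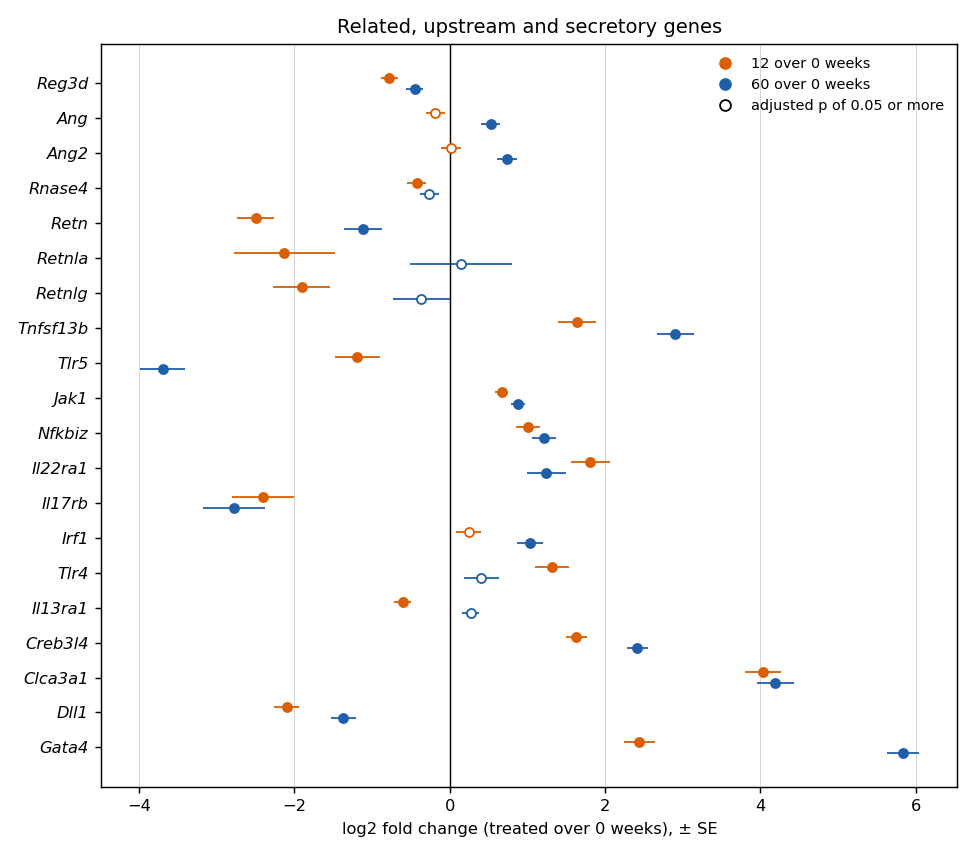
Log2 fold change of genes related to, or known to act on, the defence genes, at 12 weeks (orange) and 60 weeks (blue) over 0 weeks, with limma's SE; open symbols did not pass an adjusted p of 0.05. Tnfsf13b, Jak1, Nfkbiz, Il22ra1, Creb3l4, Clca3a1 and Gata4 lie right of 0 at both times; the points of Retn, Retnla and Retnlg at 12 weeks, Il17rb at both times and Tlr5 at 60 weeks are differences of measured means with the treated group not well above background.

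Markers of secretory and other cell types were measured beside the members. Of 17 tested genes of the goblet and deep crypt secretory cell list, 10 rose and 2 fell at 12 weeks (median 1.66) and 8 rose and 3 fell at 60 weeks (median 0.62). Among all tested genes, 19.1% rose and 22.7% fell at 12 weeks, and 16.7% rose and 16.1% fell at 60 weeks. The summed level of the list's 25 named genes ran from 27.3 to 32.6 at 0 weeks, from 150 to 237 at 12 weeks and from 166 to 193 at 60 weeks, in multiples of the 75th percentile. At 12 and 60 weeks, though not at 0 weeks, most of that sum was 1 gene, the membrane mucin gene Muc13. Muc13 lay at 6.79 to 11 at 0 weeks, 106 to 151 at 12 weeks and 130 to 153 at 60 weeks. Without it the sum ran from 19.9 to 21.5, from 44.2 to 86.4 and from 35.7 to 43.7. Sytl2, which encodes a synaptotagmin-like protein of vesicle transport, was at least 5.08-fold higher at 12 weeks and at least 1.24-fold higher at 60 weeks than at 0 weeks. Muc13 rose by 3.85 (adjusted p = 4.66e-06) and 3.96 (adjusted p = 4.72e-06), and Creb3l4, a transcription factor gene, by 1.63 (adjusted p = 4.86e-05) and 2.42 (adjusted p = 7.25e-06), at 12 and 60 weeks. Clca3a1, a calcium-activated chloride channel regulator, rose by 4.03 ± 0.24 (adjusted p = 8.09e-06) at 12 weeks and by 4.19 ± 0.24 (adjusted p = 7.66e-06) at 60 weeks, and Galnt12, a mucin-type glycosyltransferase gene, by 2.30 (adjusted p = 1.58e-05) and 0.85 (adjusted p = 0.0036). Sct, the secretin gene, rose by 3.54 at 12 weeks (adjusted p = 2.38e-05) and did not pass at 60 weeks (-0.30, adjusted p = 0.387), while Dll1, the Notch ligand of early secretory cells, fell by 2.10 (adjusted p = 3.64e-05) at 12 weeks and fell by 1.37 (adjusted p = 0.000448) at 60 weeks. Other genes of the list went both ways, by differences of measured means at 12 and 60 weeks. Fcgbp (3.65 and 2.95) and Clca1 (1.78 and 1.38) rose, and Ern2 fell (-1.02 and -0.81). Spink4 fell at 60 weeks (-1.49), a call lost in 9 alternatives, and did not pass at 12 weeks (-1.23). Agr2 (2.03 and 0.60) and Spdef (-0.41 and 0.62) did not pass. Without replicate 2 of 12 weeks, Spink4 at 12 weeks (-1.49) and Spdef at both times (-0.63 and 0.62) passed. The goblet genes Tff3 and Atoh1 were too dim to test at any time. Of 14 named Paneth cell genes 5 were tested, and the defining lysozyme and alpha-defensin genes Lyz1, Defa3, Defa5, Defa21, Defa23 and Defa26 were too dim to test. Of 10 small intestine markers, 3 were well above background on at least 2 arrays at 0 weeks and 5 at 12 and at 60 weeks, with summed levels of 9 to 10.2 at 0 weeks, 6.34 to 11.6 at 12 weeks and 4.61 to 4.68 at 60 weeks, and Lct, Apoa4 and Pdx1 were not well above background on any array. The fall of that sum lay in Gata6, at 6.15 to 6.74 at 0 weeks, 3.61 to 5.21 at 12 weeks and 0.766 to 1.02 at 60 weeks. Without Gata6 the sum ran from 2.85 to 3.6, from 2.73 to 6.44 and from 3.62 to 3.84. Of the 5 markers tested, 3 rose and 2 fell at 12 weeks, and 2 rose and 2 fell at 60 weeks. Within that list the transcription factor gene Gata4 rose by 2.44 ± 0.20 (adjusted p = 5.01e-05) at 12 weeks and by 5.84 ± 0.20 (adjusted p = 5.71e-07) at 60 weeks, Onecut2, another transcription factor gene, fell by 4.35 (adjusted p = 5.7e-06) at 60 weeks, and Gata6 fell by 2.89 (adjusted p = 7.25e-06) at 60 weeks. The size of the Gata4 rises depended on the background correction: with normexp they were 0.95 at 12 weeks and 3.75 at 60 weeks, both called. The part of these cell type genes in the members' levels was not tested.

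Among 18 tested antimicrobial genes of epithelium outside the Reg, intelectin, angiogenin and resistin families, 13 rose and 1 fell at 12 weeks (median 2.48) and 9 rose and 2 fell at 60 weeks (median 1.57), and 1 rose and 5 fell at 60 against 12 weeks (median -1.24), where Itln1 was 13.8-fold and Reg3g 3.21-fold higher. Over all tested genes, 19.1% rose and 22.7% fell at 12 weeks, and 16.7% rose and 16.1% fell at 60 weeks. At 60 against 12 weeks 20.7% rose and 17.6% fell. Leaving out single arrays gave 2 to 12 of the 18 antimicrobial genes called at 60 against 12 weeks. Without replicate 2 of 12 weeks, Saa1 (-4.14), Saa2 (-3.68), Saa3 (-7.52), S100a8 (-3.40) and Lypd8 (-1.57) were also called lower there. Sprr1a (0.85) was then also called higher. Duoxa2, the maturation factor of a hydrogen peroxide-producing oxidase, was at least 287-fold higher at 12 weeks and at least 238-fold higher at 60 weeks than at 0 weeks. S100a9, which encodes a subunit of the metal-binding protein calprotectin, was at least 1813-fold and at least 125-fold higher at those times. Ltf, which encodes the iron-binding lactoferrin, rose by 5.73 ± 0.41 (adjusted p = 2.37e-05) at 12 weeks and by 5.50 ± 0.41 (adjusted p = 3.37e-05) at 60 weeks. Lcn2, which encodes the siderophore-binding lipocalin 2, rose by 5.20 (adjusted p = 0.000126) and 4.97 (adjusted p = 0.000199), and the nitric oxide synthase gene Nos2 by 3.34 (adjusted p = 0.000157) and 3.36 (adjusted p = 0.000189), at 12 and 60 weeks. Dmbt1, which encodes a bacteria-binding scavenger receptor protein, fell by 2.95 ± 0.47 (adjusted p = 0.00163) at 12 weeks and fell by 4.71 ± 0.47 (adjusted p = 0.000175) at 60 weeks. S100a8, the other calprotectin subunit, was at least 81.7-fold higher at 12 weeks and at least 17.9-fold higher at 60 weeks than at 0 weeks. Slpi, a secreted protease inhibitor, rose by 1.40 at 12 weeks (adjusted p = 0.00139) and fell by 0.98 at 60 weeks (adjusted p = 0.00915), both against 0 weeks. With the normexp correction the differences of measured means at 12 and 60 weeks were 6.20 and 5.91 for Duoxa2, 8.99 and 5.07 for S100a9 and 4.67 and 2.61 for S100a8, smaller than these bounds, and all were called. The beta-defensin genes Defb1, Defb2, Defb3, Defb4 and Defb14 were too dim to test. With a block for slide row, under which 60 and 0 weeks share no row, the 60-week calls of Reg3d, Ang, Ang2, Retn, Aldh1a1, Il17rb, Il22ra1, Tlr2, Slpi, S100a8, Galnt12, Dll1, Fcgbp, Ern2 and Spink4 were lost, as were the 12-week calls of Tlr5, Il13ra1, Rnase4 and Retnla. The normexp correction also reduced the differences over 0 weeks, all still called, of Tnfsf13b to 0.77 and 1.74, of Clca3a1 to 2.54 and 2.65, of Gata4 to 0.95 and 3.75 and of Sytl2 to 1.38 and 0.61 at 12 and 60 weeks, of Tlr5 to -0.63 and of Sct to 2.22 at 12 weeks, and of Ang2 to 0.46 at 60 weeks. The 12-week normexp difference of Sytl2 was smaller than its bound.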

How the data were processed

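Total RNA of 9 mouse colon organoid samples was labelled with Cy3 and hybridised to Agilent arrays, per the labels' protocols. Per the file headers, the authors' spot values come from Agilent Feature Extraction 10.7.3.1. The deposited scanner files hold a background-subtracted, spatially detrended intensity per spot on a linear scale, with no scaling from array to array. The value table, also deposited, gives a linear signal for 42530 of 55681 probes, namely that intensity divided by 1 constant per array at 0.993 to 0.999 of the array's 75th percentile; its column medians run from 0.0582 to 0.0733, and 0 columns were left over. It lacks 4 of the 11 member probes and served as an alternative. Its direction and centring are those of the intensities.

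From the deposited intensities, log2 levels were computed in R 4.3.3, with the 75th percentile of an array's non-control probes set to 0. Spots called outliers (117 to 163 of 59305 per array) were missing, 0 were saturated, and spots of a probe were averaged. The files carry no symbols: RefSeq accessions named 27235 probes, and 28446 had none, through a GRCm38.p6 table used only for names, chromosomes and gene order, since the array design refers to another build. A probe was kept if well above background on at least 2 of 3 arrays of a group, and the brightest with a value on every array stood for its gene. The 3 group means were estimated in 1 fit of the 9 arrays with limma 3.58.1 (lmFit, eBayes; two-sided), and a Benjamini-Hochberg adjusted p under 0.05 over 14014 genes was a call. The number of arrays limits the precision. Where no array of a group showed a gene well above background, "at least N-fold" uses the lowest level called well above background on each such array, or the gene's own where higher. That level is not a strict limit of detection: on replicate 2 of 12 weeks it was -4.52, and Reg3g at -4.19 was not called. Such bounds hold for the background-subtracted intensities, and some normexp differences were smaller. No p-value is given beside them, as the fit rests on levels near background in 1 group.

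The members and all gene lists were chosen with earlier results of these data known, so the p-values of list genes are given as a description. Named genes are the 9 members, the 3 genes with the highest correlation to each tested member, and up to 8 per list in order of the lower adjusted p over the 12 and 60 against 0 weeks comparisons, beside list genes that did not pass or were too dim. A few further list genes are named where they qualify a count. Deviations of same-numbered replicates of different groups correlated weakly (r from -0.0816 to 0.202 over 9 pairs, 2 above 0.1), against -0.242 to 0.157 for different numbers. The 2 highest values, 0.202 and 0.197, were of same-numbered pairs. The labels name no pairs, so the numbers served only as a block in an alternative. The script was tested on simulated data. Motif positions and promoter identities (global alignment, Biopython 1.88) were computed on RefSeq sequences. Alternatives were background correction (normexp with an offset of 50, on the median spot signal since the mean is not in the files), scaling, filters, probe choice, blocks for replicate number, slide and row, and leaving out each array.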

Additional observations from a re-analysis of the deposited data

How the results depend on the processing

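Under 21 alternatives no called difference of a member changed direction. Members called at 12 against 0 weeks numbered 3, and 0 when only probes well above background on all 9 arrays were kept and 5 without replicate 2 of 12 weeks; at 60 against 0 weeks they numbered 6, and 2 with that filter and 2 with the slide row as a block; at 60 against 12 weeks they numbered 6, and 2 with that filter. The filter removes the members that were dim in 1 group, Itln1 included. With the row block, which leaves 60 and 0 weeks without a shared row, genes called at 60 against 0 weeks numbered 1389, against 4597 without it, and at 60 against 12 weeks 3463, against 5373. With the replicate number as a block, 5792, 4453 and 5245 genes were called, and of the members' calls the one lost was Reg3b at 60 against 12 weeks. Leaving out single arrays gave 4221 to 7394 genes called and 2 to 5 members at 12 against 0 weeks, 3196 to 6018 genes and 4 to 6 members at 60 against 0 weeks, and 3622 to 7062 genes and 4 to 5 members at 60 against 12 weeks. The row block ended the 60 against 0 weeks calls of Pigr (1.67), Ang4 (0.66), Retnlb (0.63, against 1.40 without it) and Reg3a (-0.86, against -1.77), and Itln1 kept its calls in each alternative that tested it. The other probes of Itln1 and Pigr were tried after seeing the data, and the Pigr difference at 12 against 0 weeks was then 2.09 and called. Among genes of the pathway and small intestine lists, 4323 values kept their direction and side of the threshold, 255 lost a call and 72 gained one. The causes were not tested. Levels near background, as for Reg3a, Reg3b, Retnlb, Reg1 and Reg4, limit what these arrays can show.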
